A study of Caenorhabditis elegans with 2 samples.

Results

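The nuclear hormone receptor genes of Caenorhabditis elegans were examined for regions called in a chromatin immunoprecipitation with sequencing (ChIP-seq) experiment labelled as against FKH-10, a forkhead transcription factor. Members were taken by name from Ensembl release 115 (assembly WBcel235, the same sequence as ce11), as protein-coding genes whose symbol is nhr- followed by a number. This gave 269 members among the 19973 genes of that class on the nuclear chromosomes, and the naming rule uses no measured value, though the family was picked for description with earlier results of these data known. The animals were whole, mixed sex L3 larvae of strain OP337, which carries the mutation unc119(ed3) and the insertion wgIs377. The insertion holds unc119 together with fkh-10::TY1 EGFP FLAG, that is, FKH-10 with a C-terminal tag, and the antibody is labelled fkh-10. What drives expression of the transgene is not stated in the labels. Both libraries, biological replicates 1 and 2, belonged to this 1 group, so there was no second condition and no test between groups. Whole animals mix all tissues, and a region cannot be assigned to a cell type.

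Nuclear hormone receptors are transcription factors with a zinc finger DNA-binding domain and, in most cases, a domain that binds small lipophilic ligands such as sterols and fatty acids. Nematodes carry many more of them than flies or mammals. Most descend from an ancestor related to the mammalian receptor HNF4, and many of these lie in clusters on chromosome V, while a small group has recognisable counterparts in other phyla and acts in molting, developmental timing, cell fate and sterol metabolism. Here 12 members were counted as conserved from textbook knowledge: nhr-6, nhr-8, nhr-23, nhr-25, nhr-41, nhr-48, nhr-64, nhr-67, nhr-85, nhr-91, nhr-111 and nhr-239. The place of nhr-64, nhr-111 and nhr-239 among them is the least sure. The other members on chromosome V numbered 166 and are called the expanded set, and 91 members on the other chromosomes made up the rest.

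A member's window ran from 1 kb upstream of its annotated 5′ end to the gene's end, and a region was counted where its summit lay in the window. The authors' thresholded list, made with the irreproducible discovery rate (IDR, a measure of how alike regions rank in replicates), held 2005 peaks with signal values from 28.2 to 182. The longer lists, 1 from the pooled replicates and 1 from each replicate, had 30000 regions apiece and mixed peaks with background. Signal values are the ones given by the authors' peak caller and are compared within a list only. No list gives a number of reads, so the depth behind each value is unknown. No region lay within 20 kb of fkh-10 itself in any of the lists, 0 in each of them. In the windows of all protein-coding genes, the longer lists held 29.8 to 29.9 summits per 100 kb. Around fkh-10 background regions were thus missing as well, so the 0 is not read as a lack of binding. Its cause was not tested.

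Sequences at the summits are shown first for members on which the results turn. These are nhr-48, the conserved member with a thresholded peak, nhr-28, nhr-1 and nhr-40, which have the strongest peaks of the remaining members, and nhr-47 and nhr-142, the members of the expanded set with a peak. Each line gives the plus strand of WBcel235 from 50 bp before to 50 bp after the summit, trimmed at nhr-47 to the part outside annotated UTRs. Capitals mark matches on either strand to 6 short motifs. They are AGAGAGA, with its shifted form CTCTCTC, then AAGAAGA, with its shifted form CTTCTTC, besides the purine word GAAGAGA as well as GAGACGC.
nhr-48 (chrX:15707582-15707682): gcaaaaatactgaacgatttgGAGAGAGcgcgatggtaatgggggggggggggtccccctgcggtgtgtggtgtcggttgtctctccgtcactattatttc
nhr-28 (chrX:16356491-16356591): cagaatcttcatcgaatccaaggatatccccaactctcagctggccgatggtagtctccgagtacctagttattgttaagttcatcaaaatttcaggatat
nhr-1 (chrX:17513668-17513768): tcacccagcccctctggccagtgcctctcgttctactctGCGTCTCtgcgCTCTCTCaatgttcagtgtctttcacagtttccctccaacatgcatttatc
nhr-40 (chrX:2595410-2595510): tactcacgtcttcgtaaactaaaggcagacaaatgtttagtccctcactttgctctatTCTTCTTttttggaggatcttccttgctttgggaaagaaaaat
nhr-47 (chrV:5505174-5505252): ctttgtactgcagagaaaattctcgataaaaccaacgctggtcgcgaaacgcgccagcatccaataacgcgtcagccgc
nhr-142 (chrV:5790975-5791075): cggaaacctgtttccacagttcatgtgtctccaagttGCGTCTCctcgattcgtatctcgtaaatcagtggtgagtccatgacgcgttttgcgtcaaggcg

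Across the family, thresholded peaks were found at few members, and 7 of these 12 members were on X. A thresholded summit lay in the windows of 12 of the 269 members (4.46%, exact 95% interval 2.33% to 7.66%, which treats genes as independent draws), where 6.99% of all protein-coding genes had one. On X, 7 of 23 members had one (30.4%, exact interval 13.2% to 52.9%), namely nhr-28, nhr-1, nhr-40, nhr-48, nhr-14, nhr-45 and nhr-3, against 8.09% of the other X genes. Off X it was 5 of 246 members (2.03%, exact interval 0.663% to 4.68%), against 6.86% of the other genes off X. Most of these members are on V, and off both V and X it was 3 of 79 (exact interval 0.790% to 10.7%), an interval that holds the 7.77% of other genes there. The X members had longer windows than other X genes, with a median of 5483 bp against 3531.5 bp, and this is taken up below by classes of window length.

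**Figure D1:**
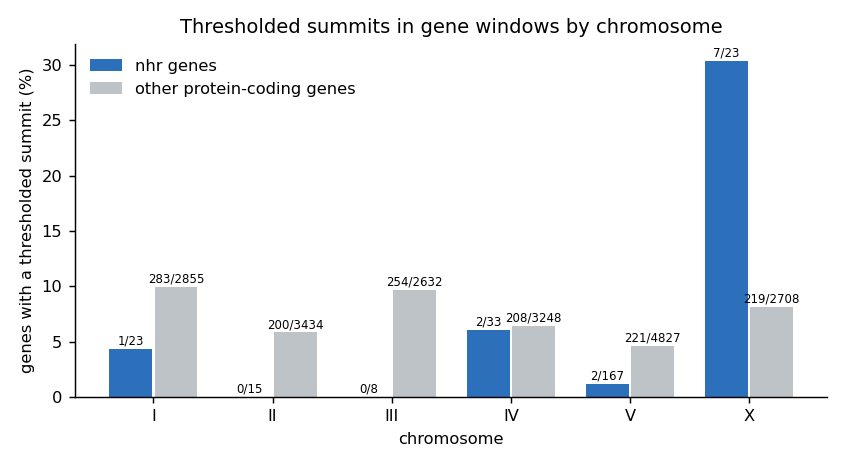
Share of genes (%) with a thresholded summit between 1 kb upstream of the 5′ end and the gene's end, by chromosome, for nhr genes and for other protein-coding genes, with counts above the bars. The nhr genes on X reach 30.4%, while those on V stand at 1.20%, below the other genes of V (4.58%).

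The strongest peaks of the family were at nhr-28, nhr-1, nhr-40 and nhr-48, all on X. At nhr-28 (WBGene00003624) 3 thresholded summits lay in the gene. One in an intron, 1565 bp from the 5′ end, had the signal 73.7 and rank 182 of 2005, and the replicate regions over it ranked 438 in replicate 1 and 62 in replicate 2. The others, in an intron at 2756 bp (signal 60.2) and in a coding exon at 64 bp (signal 53.4), ranked 375 and 539. The nhr-28 window also held 10 pooled summits, and 10 in each replicate's own list. This gene lies in a stretch of 33859 bp on X (16344441 to 16378299) with 25 thresholded summits, shared with taf-3, ace-1 and sur-7, so the peaks at nhr-28 belong to a run that extends over its neighbours.

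At nhr-1 (WBGene00003600) the strongest of 3 thresholded summits lay 345 bp upstream of the 5′ end (signal 62.2, rank 333), at the sequence shown above. The others lay in the 5′ UTR at 4447 bp (signal 41.4) and in an intron at 5566 bp (signal 46.8). The window of nhr-1, at 15135 bp, held 11 pooled summits and 11 in the list of each replicate. At nhr-40 (WBGene00003630), a gene known for muscle development, 3 summits lay in introns, at 1457 bp (signal 61.3, rank 345), 5156 bp (signal 43.3) and 10948 bp (signal 45.7). All 3 had regions in both replicates, with ranks from 365 to 537 in replicate 1 and from 469 to 1681 in replicate 2. The 5′ end of another gene was nearer to each. It was T03G6.7 for the summits at 1457 and 5156 bp (1421 and 5120 bp away) and T03G6.1 for that at 10948 bp (3277 bp away).

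The remaining members with peaks on X had fewer summits. At nhr-14 (WBGene00003613), known for iron handling in the intestine, the summit 266 bp upstream had the signal 52.7 and rank 566. Here the replicates differed, with rank 221 in replicate 1 and 3677 in replicate 2. At nhr-45 (WBGene00003635) the summit lay 494 bp upstream, with signal 41.8 and ranks of 651 and 2242 in replicates 1 and 2. At nhr-3 (WBGene00003602) a summit in an intron at 1823 bp had signal 40.2 and one 896 bp upstream had signal 32.6, and the replicate ranks of the first were nearly equal at 1264 and 1296.

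Among autosomal members outside the expanded set, peaks were found at nhr-105, nhr-11 and nhr-49. At nhr-105 (WBGene00003695, chromosome IV) 3 summits lay 224 bp upstream and in introns at 463 and 1553 bp, with signals of 30.4, 41.3 and 30.6. Of these, the summit at 463 bp was ranked 1124 and 1029 in the replicates, while the others ranked 5255 and 7823 in replicate 2. At nhr-11 (WBGene00003610, chromosome IV) a summit in an intron at 804 bp had signal 36.3, and 7 pooled summits lay in its window of 4620 bp. The regions over the thresholded summit of nhr-11 ranked 2447 in replicate 1 and 867 in replicate 2. At nhr-49 (WBGene00003639, chromosome I), a receptor known for control of fatty acid desaturation and fasting responses, the summit lay 263 bp upstream with signal 47.7 and rank 726. Its replicate ranks were 766 and 3358.

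**Figure D2:**
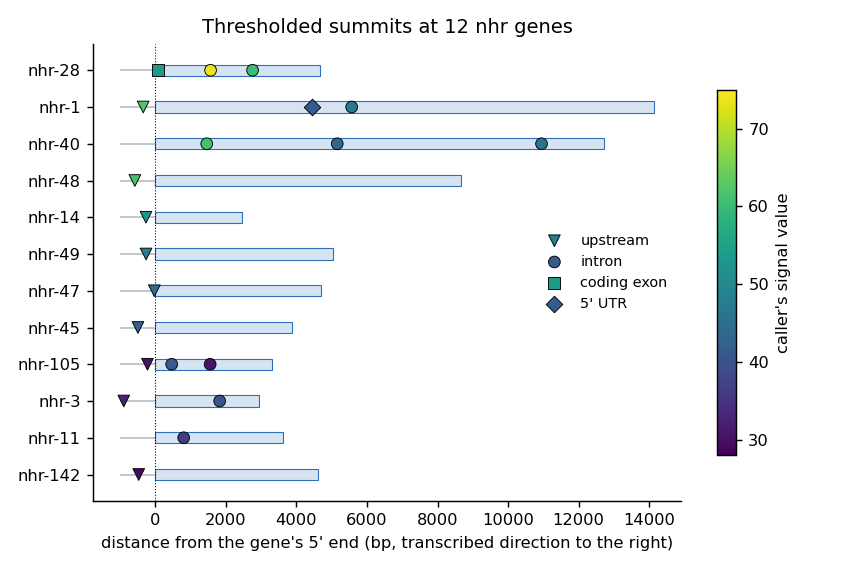
Thresholded summits at the 12 nhr genes that have one, by distance (bp) from the gene's 5′ end. Bars show the gene, grey lines the 1 kb upstream, the marker shape the annotated place of the summit and its colour the caller's signal value. The summits upstream lie 29 to 896 bp from the 5′ end, and nhr-28, nhr-1, nhr-40 and nhr-105 have 3 summits each.

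In all, 21 thresholded summits lay in members' windows, with signals from 29.4 to 73.7 and a median of 44.5, beside 41.8 over the whole list. In introns lay 10 (47.6%), upstream 9 (42.9%), in the 5′ UTR 1 and in a coding exon 1. Over genes that are no member, 33.1% of such pairs of gene and summit were in introns and 58.0% upstream. The members with a summit are long genes (median 4636 bp, against 2020.5 bp for all genes that are no member). Among them nhr-28, nhr-1, nhr-40 and nhr-105 gave 3 summits each. The part of gene length in these shares was not tested. Of the 21 summits, 19 lay in no other gene's window. Every one had a region over it in both replicates, and at 13 both regions were among the 2005 strongest of their list. The region was below that rank in replicate 1 at 3 summits (lowest rank 2447) and in replicate 2 at 6 (lowest rank 7823). As the thresholded list draws on both replicates, the presence of a region in both is partly built in. Shared windows and replicate ranks were not counted over all 2005 thresholded summits, so these counts are not read as results about members.

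The 4 forkhead cores searched on both strands within 50 bp of the summit were found at 0 of these 21 summits. Over all 2005 thresholded summits, GTAAACA was present at 1.35%, while ATAAACA was at 1.45%. For GTAAATA the share was 1.20% while for ATAAATA it was 1.80%. At least 1 of them was present at 5.54%. The 6 motifs in capitals above (AGAGAGA and the reverse complement of CTCTCTC overlap in runs, as do AAGAAGA and the reverse complement of CTTCTTC) were known from earlier results of these data to be frequent at the peaks. At least 1 of them was present at 9 of the 21 summits (42.9%), near the 40.9% of all summits. Singly, GAGACGC was at 14.3% of the 21 summits beside 8.63% of all, while AAGAAGA was at 14.3% beside 15.2%. Over these windows the G and C content was 43.3% ± 8.03 (SD, 21 windows), and 43.5% ± 8.69 over all 2005.

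Of the 12 conserved members, nhr-48 alone had a thresholded peak (8.33%, exact interval 0.211% to 38.5%), which is near the 6.99% of all protein-coding genes. With 12 genes, a share like that of all genes and one several times larger cannot be told apart. The peak at nhr-48 (WBGene00003638), a relative of the dauer receptor gene daf-12, lay between genes 581 bp upstream of the 5′ end, with signal 61.2 and rank 348. The replicates ranked it 368 and 664. Its window of 9663 bp held only 1 further pooled summit.

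In the pooled list, 10 of the 12 conserved members (83.3%) had a summit, against 61.6% of all protein-coding genes. These are long genes, and 11 of the 12 are among the genes with long windows (3918 bp or more), where 10 of 11 had a pooled summit and 82.2% of genes that are no member did. The strongest pooled regions of the 11 without a thresholded peak had signals of 20.1 or less. At nhr-67, which acts in the fate of the anchor cell and is the counterpart of fly tailless, the signal was 20.1 (rank 3321 of 30000). At nhr-91, the counterpart of mammalian GCNF, it was 17.0 (rank 4418), and at nhr-41, the counterpart of fly DHR78, 16.8 (rank 4522). At nhr-85, which acts in larval timing and is the counterpart of fly E75, it was 13.8 (rank 6790).

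At the other conserved members the pooled signals lay between the floor of the list, 6.91, and a little above its median, 9.89. They stood at 10.3 at nhr-25, which acts in molting and in epidermal and vulval development and is the counterpart of mammalian SF-1, and at 10.1 at nhr-23, a molting regulator and counterpart of mammalian ROR. For nhr-239 the signal was 9.61, for nhr-64 9.25, and for nhr-6, the counterpart of NR4A receptors needed for the spermatheca, 7.35. At nhr-8, a relative of daf-12 in sterol handling and resistance to toxins, and at nhr-111, the pooled list held none, though each replicate's own list held 1.

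The replicates differed at several of these genes. At nhr-23 no region of replicate 1 and 5 of replicate 2 had their summit in the window, and at nhr-85 it was 1 and 6. In the other direction, nhr-64 had 6 in replicate 1 and 1 in replicate 2, and nhr-67 had 7 and 2. At nhr-91 both had 4, and at nhr-25 both had 2. Among the 2005 strongest regions of replicate 2 alone, nhr-41 (rank 1956) joined nhr-48, while its best rank in replicate 1 was 7685.

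**Figure D3:**
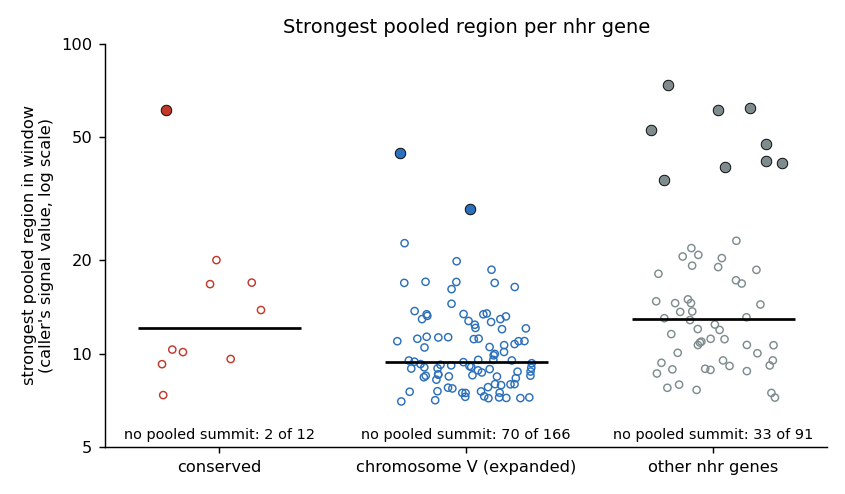
Signal value of the strongest pooled region in the window of each nhr gene, on a log scale, for the 12 conserved members, the 166 of the expanded set on V and the 91 others. Filled points have a thresholded summit, the black lines are medians of the genes with a pooled summit (12.1, 9.41 and 12.9), and the numbers of genes with none stand below. Such medians were 11.3 over all protein-coding genes and 10.4 over other V genes. Median windows of the 3 classes differed, at 6501.5, 3146.5 and 3784 bp, and the part of window length was not tested.

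The expanded set on chromosome V was almost without thresholded peaks. Of its 166 genes, nhr-47 and nhr-142 had one (1.20%, exact interval 0.146% to 4.28%), against 4.58% of the other genes on V. At nhr-47 (WBGene00003637) the summit lay 29 bp upstream, with signal 44.5, rank 873 and replicate ranks of 1789 and 448. It lay within 1 kb of the start of dnj-19 too, which encodes a chaperone of the DnaJ family. At nhr-142 (WBGene00018430) the summit lay 472 bp upstream, with signal 29.4 and rank 1888, and the start of F44E7.9 was nearer at 205 bp. Both peaks were thus shared with a neighbour, and 0 of the 166 genes had a thresholded summit outside the windows of genes that are no member. The share of other V genes under that rule was not counted, so this 0 is not read as a trait of the set.

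In the pooled list the expanded set was much like its chromosome. A pooled summit lay in the windows of 96 of the 166 genes (57.8%), and of 53.3% of other V genes. Per 100 kb of window there were 24.6 pooled summits in the expanded set and 25.9 at other V genes, but 0.367 and 1.26 thresholded ones. The strongest pooled regions without a thresholded peak were at nhr-247 (signal 22.7, rank 2753), nhr-253 (signal 19.9), nhr-186 (signal 18.7), nhr-36 (signal 17.1) and nhr-158 (signal 17.0). At nhr-218 and nhr-127, which are neighbours, the same region with signal 16.9 was counted for both. At nhr-192 the signal was 16.4. At nhr-186 the best rank was 1711 in replicate 1 and 10701 in replicate 2, and at nhr-253 it was 18117 and 2223.

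Within the expanded set, shares were also counted by how many other members started near a gene. Of 83 genes with 3 or more members starting within 20 kb, 42 had a pooled summit (50.6%) and 25 had one in both replicates' lists (30.1%). Of 45 genes with 1 or 2 such neighbours the counts were 30 (66.7%) and 22 (48.9%), and of 38 genes with none they were 24 (63.2%) and 18 (47.4%). Median windows were of similar length at 3101, 3270 and 3186 bp. This was not tested, since neighbours share windows. Of the other V genes, 53.3% had a pooled summit and 34.6% had one in both replicates' lists. Both nhr-47 and nhr-142 were among the 38 genes with no member near. Over the family, 11 of the 12 members with a thresholded peak had no other member within 20 kb, nhr-49 being the exception, against 33.5% of the 257 members without one. However, 10 of the 12 were off V, where 56.9% of the 102 members had none near, beside 22.9% of the expanded set. The part of the chromosome in this contrast was not tested.

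Window length went with the count of peaks in the whole family. Of the 12 members with a thresholded summit, 11 had long windows (3918 bp or more), when all protein-coding genes were divided by window length into 3 classes of similar size. In that class, 11 of 87 members (12.6%) had one, and 12.3% of other genes did. The class of middle windows (2459 to 3917 bp), which held 159 members, had one at nhr-14 alone (0.629%), against 4.56% of other genes, and with short windows it was 0 of 23 against 4.23%. On V, the expanded set had 2 of 34 (5.88%) with long windows against 9.21% of other V genes, and 0 of 118 with middle windows against 3.61%. On X, members had 6 of 17 (35.3%) with long windows against 13.5% of other X genes. Because the classes are wide, lengths still differ within them.

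**Figure D4:**
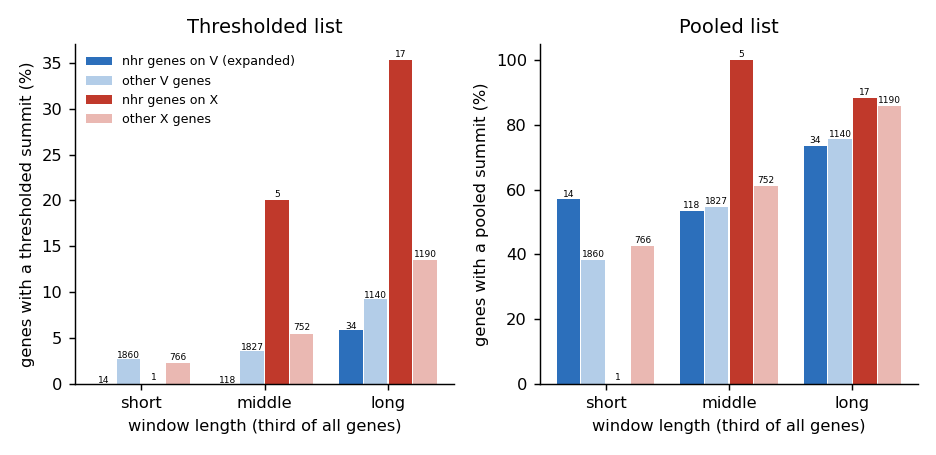
Share of genes (%) with a thresholded summit (left) or a pooled summit (right), by 3 classes of window length over all protein-coding genes, for nhr genes of the expanded set on V, nhr genes on X and the other genes of V and X. Numbers above the bars are genes per class. With middle windows 0 of 118 genes of the expanded set have a thresholded summit, and with long windows X nhr genes stand at 35.3%.

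Intergenic space differed in the same way. The median distance from the 5′ end to the next protein-coding gene upstream was 5200 bp for conserved members, 1062 bp for the expanded set and 2807 bp for the others, beside 936 bp for all protein-coding genes. For the 12 members with a thresholded summit it was 8008 bp and for the 257 without 1517 bp. Most of the 12 were off V, and for all 102 members off V it was 3422.5 bp, and for the 23 X members 5033 bp. The part of this spacing in the counts was not tested.

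In both replicates' own lists a summit lay in the windows of 127 of 269 members (47.2%), and of 44.6% of all protein-coding genes. A further 50 members had one in replicate 1 alone and 44 in replicate 2 alone, beside 3304 and 3395 of the 19973 protein-coding genes. In the expanded set 65 (39.2%) had one in both, against 34.6% of other V genes. A further 43 of the set had one in replicate 1 alone and 30 in replicate 2 alone. Of the 12 conserved members 11 had one in both, nhr-23 being the exception. In none of the 4 lists did 44 members have a summit, 24 of them in the expanded set and 0 conserved. These are 16.4% of members and 14.5% of the expanded set, beside 19.5% of all protein-coding genes and 24.9% of other V genes.

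Among the 2005 strongest regions of each replicate, 8 members (2.97%) had a summit in both replicates, against 4.45% of all protein-coding genes. They were nhr-28, nhr-1, nhr-40, nhr-48, nhr-3, nhr-105, nhr-11 and nhr-47, all of them with a thresholded peak. In replicate 1, nhr-11 counted through another region of its window (rank 1509), as the region over its thresholded summit ranked 2447. Replicate 1 alone gave 15 members (5.58%, beside 6.99% of all genes), including all 12 with a thresholded peak. Replicate 2 alone gave 13 (4.83%, beside 6.71% of all genes), of which 8 were among the 12. The thresholded list draws on both replicates, so this overlap is partly built in. Just below the thresholded members came nhr-255 (pooled signal 23.1), ranked 1654 in replicate 1 and 22647 in replicate 2, then nhr-247 and nhr-146 (pooled signal 21.9). The last thresholded member was nhr-142 at 29.4.

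**Figure D5:**
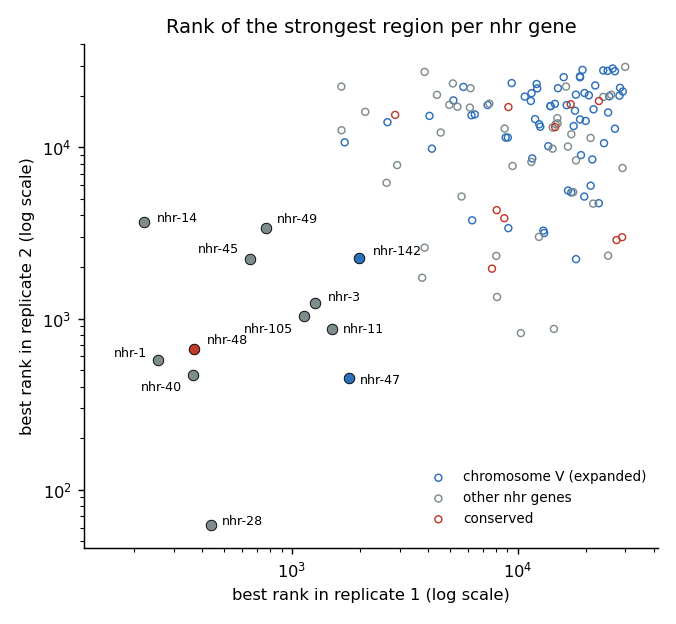
Best rank of a region in the window of each nhr gene in the lists of replicate 1 (x axis) and replicate 2 (y axis), both on log scales, for the 127 members with a summit in both. Filled and named points are the 12 members with a thresholded summit. They lie at ranks of 1970 or better in replicate 1 but reach rank 3677 in replicate 2, at nhr-14.

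The number of pooled summits ranged widely among members, from none to 25 at nhr-27, an X gene with a window of 103756 bp. Single summits were found at 85 members and 2 or more at 79 of the 269. Among all 19973 protein-coding genes these counts were 6497 and 5811, with at most 30 summits at a gene. At nhr-27 no summit passed the threshold, and the strongest pooled region had the signal 19.04. By contrast nhr-28 had 10 in 5675 bp, nhr-11 had 7 in 4620 bp, and nhr-40 and nhr-1 had 11 each.

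Other genes of receptor signalling were looked up in the same windows. Of 5 receptor genes without the nhr symbol, daf-12, the dafachronic acid receptor of the dauer decision, had a thresholded summit in an intron 1778 bp from its 5′ end (X, rank 1046 of 2005). The best ranks in its window were far apart in the replicates, at 288 in replicate 1 and 9278 in replicate 2. At fax-1, unc-55, odr-7 and sex-1 there was none. Of 3 genes for cofactors or related regulators, din-1 had one upstream, between genes, at -735 bp from its 5′ end (chromosome II, signal 58.2, rank 405). This gene encodes a corepressor that acts with DAF-12. Neither mdt-15 nor sbp-1 had one. Of 7 genes for dafachronic acid synthesis and sterol transport (daf-9, daf-36, hsd-1, dhs-16, emb-8, ncr-1 and ncr-2) and 5 genes known as NHR-49 targets or in the same fatty acid pathways (fat-5, fat-6, fat-7, acs-2 and cpt-5), 0 had a thresholded summit. In all, 2 of these 20 genes had a thresholded summit and 14 a pooled one, where 6.99% and 61.6% of all protein-coding genes did, and with 20 genes neither count is read as a result about the list.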

How the data were processed

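ChIP-seq regions from 2 biological replicates of whole L3 larvae were used as deposited, on build ce11. Per the deposited file descriptions, the lists of peaks and background were made from each replicate's alignment, or from both, together with a further file whose kind is not stated, and the thresholded list was derived from them by IDR. The signal value of each region is the one the authors deposited, with scaling not stated. The deposited −log10 q-values ran from 3.04 to 3.52 in the thresholded list and were used no further. Summit offsets, also deposited, gave the positions. The aligner, the peak caller and their versions: not given in the sources used here. Lists on ce10 were not used here.

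Ranks, summit positions and windows were computed with Python 3.11.15 and pandas 2.3.3, positions counted from 1, and window finding was checked on simulated summits. All regions lay within the WBcel235 chromosomes. Sequence was read from the RefSeq copy of WBcel235. Named were members with a thresholded summit, the conserved members, the 10 members (and the 10 of the expanded set) with the highest pooled signal and the 5 with the most pooled summits. Also named are nhr-255 and nhr-146, which came just below the threshold and were chosen after their values were seen. The members and lists were chosen with earlier results of these data known, although the rule for members uses gene names alone. Exact intervals are Clopper-Pearson and cover sampling of genes only. No set test was made. Alternatives were other windows, stricter lists, each replicate's own list and, added after the data were seen, leaving out dense blocks of summits.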

Additional observations from a re-analysis of the deposited data

How the results depend on the processing

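Of 53 recomputed counts, 40 stayed within 1.5 times the reported one. Members with a thresholded summit numbered 7 when the thresholded list was cut at its middle rank (3.63% of all protein-coding genes then had one), and the expanded set then had 1. For the expanded set the count of 2 became 0 without summits in other genes' windows, 1 by nearest 5′ end within 1 kb, and 1 to 3 with a replicate left out. The single conserved member was lost (0) with 500 bp upstream, since the nhr-48 summit lies at 581 bp, and leaving out a replicate gave 1 to 2. With the upstream 1 kb alone, pooled summits were at 78 members, 6 conserved and 44 of the expanded set (34.3% of all protein-coding genes), and with the 10000 strongest pooled regions at 65, 5 and 27. For that shorter list the share of all genes was not counted, so its lower counts are not read as a result about members. Without nhr-64, nhr-111 and nhr-239, 1 of 9 conserved members had a thresholded and 8 a pooled summit. Leaving out dense blocks, an alternative chosen after seeing the data, gave 11 members in all and 6 of 23 on X (26.1%, beside 7.98% of other X genes). The reads per library are unknown, so no detection limit can be given for members without a peak. No paired analysis was possible because the series holds 1 group.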
